A study of Mus musculus with 13 samples.

Results

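The GIMAP family (GTPases of the immunity-associated protein family) was followed across 6 RNA-seq libraries of mouse Th17 cells. Its members were taken as the genes of the count table whose identifiers carry the symbols Gimap1, Gimap3, Gimap4, Gimap5, Gimap6, Gimap7, Gimap8 and Gimap9. Their identifiers are ENSMUSG00000090019.6 (Gimap1), ENSMUSG00000039264.10 (Gimap3), ENSMUSG00000054435.17 (Gimap4), ENSMUSG00000043505.9 (Gimap5), ENSMUSG00000047867.12 (Gimap6), ENSMUSG00000043931.11 (Gimap7), ENSMUSG00000064262.8 (Gimap8) and ENSMUSG00000051124.7 (Gimap9). All 8 were in the table, of 56941 genes in all, and all 8 passed the filter on low counts. Naive CD4 T cells of the spleen were activated and kept for 72 hours in conditions that drive Th17 differentiation. In 3 libraries the cells were Chaf1bWT, called WT here. The other 3 came from Chaf1bfl/fl;Il17fCre+ cells, called KO here, in which loxP-flanked Chaf1b alleles are combined with a Cre recombinase under Il17f. Chaf1b encodes a subunit of the histone chaperone chromatin assembly factor 1. Cre under Il17f can act only in cells that have switched that locus on, so a KO culture may hold cells that keep Chaf1b. Age is not given in the sources used here, nor is the presence of Cre in WT.

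GIMAP proteins are small GTPases that share an AIG1-type GTP-binding domain and sit on the membranes of mitochondria, endoplasmic reticulum, Golgi and lysosomes. They are made mainly in lymphocytes, where several are linked to the survival of mature T cells. Their genes lie side by side in 1 cluster. In the RefSeq gene table the order is Gimap8, Gimap9, Gimap4, Gimap6, Gimap7, Gimap1, Gimap5 and Gimap3, on chromosome 6. Of the 8 members, 6 are transcribed from the plus strand and 2, Gimap6 and Gimap3, from the minus strand. The genome build of the counts is not given in the sources used here, so the RefSeq table (GRCm38.p6) served for the order of genes and for promoter sequence.

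The libraries held 35708879 to 45232055 counts. Values below are CPM (a gene's share of the library's counts, scaled by TMM library sizes), and a difference is given as the log2 fold change of KO over WT with its SE. A gene was called at an adjusted p under 0.05 (edgeR's quasi-likelihood test, p-values adjusted by Benjamini-Hochberg over 14681 genes). Chaf1b itself was at 13.2, 11.4 and 11.5 CPM in WT and 16.3, 14.9 and 13.5 CPM in KO, and was not lower in KO (0.31 ± 0.11, adjusted p = 0.130). Its exons were counted as 1 gene and the deleted part is not given in the sources used here, so this value does not check the genotype. Directions therefore rest on the labels. Of 9 Th17 markers, 7 were called lower in KO, beside 2.47% of all genes tested. Among them was Il17a, the cytokine gene that defines these cells. Il17f (-2.83, edgeR adjusted p = 0.0135) was also among the 7, and it is the gene under which Cre is placed in KO. A part of the Cre allele in its value was not tested. Il23r (-1.52) and Ccr6 (-0.88) also had fitted values below 0 but were not called. The labels call the libraries biological replicates and do not say that each came from its own animal, so the p-values speak only of the spread among these 6 libraries, which may be technical.

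The summed level of the family overlapped between the genotypes, while single members lay on either side of 0. Gimap4 rose 1.37-fold in KO and was the 1 of 8 members that passed the test (12.5%, beside 6.39% of all genes tested, 3.92% higher and 2.47% lower in KO). None of the other 7 passed in either direction. Fitted values lay below 0 for 5 members and above 0 for 3, with a median of -0.07 against -0.01 over all genes tested. The median absolute log2 fold change was 0.138 in the family and 0.135 over all genes tested. For 6 of the 8 members the whole 95% interval lay within 1.5-fold in either direction, the exceptions being Gimap4 and Gimap7. The summed level of the family was 518, 487 and 487 CPM in WT and 481, 500.7 and 474 CPM in KO, and the groups overlapped. With Gimap4, the member that rose, left out, the sum was lower in every KO library. It was then 473, 451 and 450 CPM in WT and 431.5, 437 and 425 CPM in KO. Gimap4 was left out because it rose, so that choice draws the remaining sum toward lower values in KO. No test was run on these sums.

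**Figure D1:**
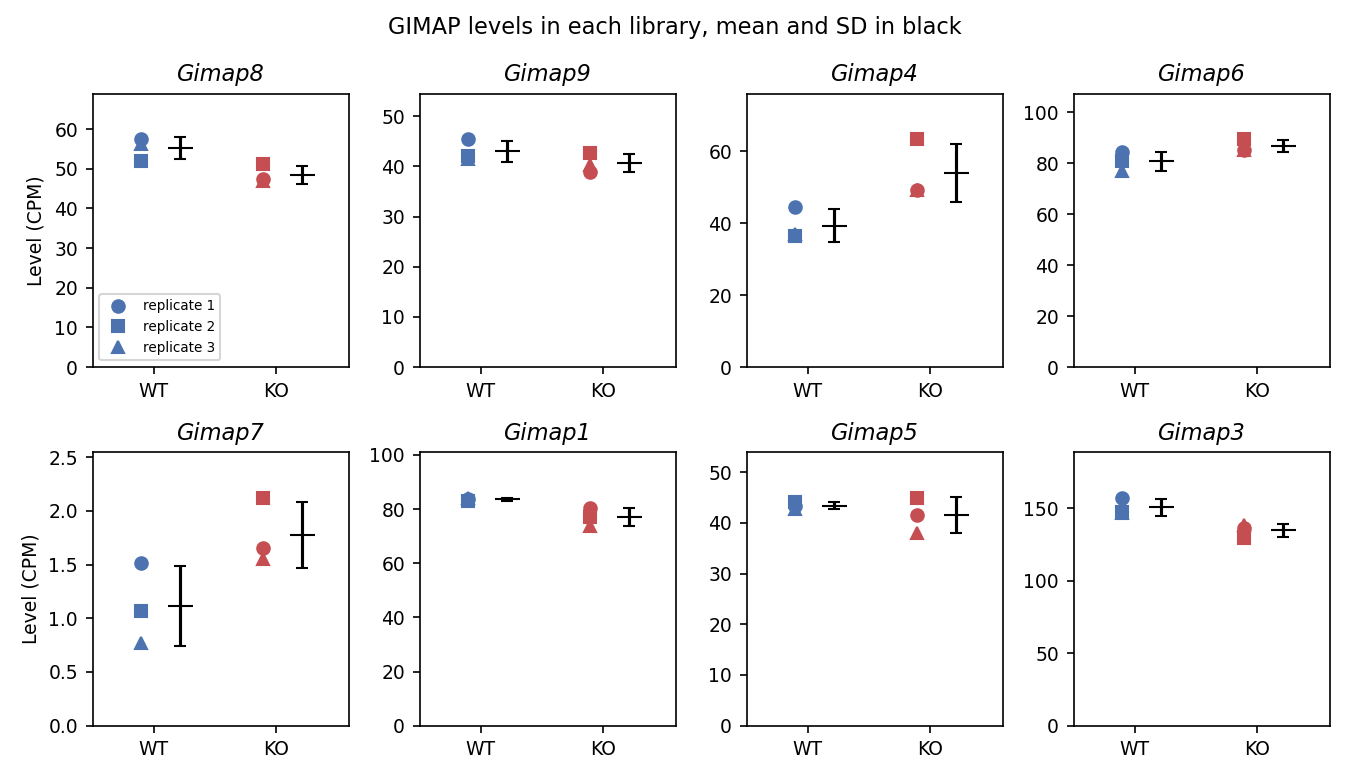
Level of each GIMAP gene in CPM (y axis, a scale of its own in each panel, from 0) in WT and KO libraries. Symbols mark replicates 1 to 3 and the black bars the mean and SD (n = 3); Gimap4 lies higher in all 3 KO libraries, at 49.1 to 63.4 CPM against 36.3 to 44.5 CPM in WT.

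Gimap4 encodes a GTPase of the endoplasmic reticulum that hastens the death of T cells and binds the apoptosis effector BAX. Its level was 44.5, 36.3 and 37.0 CPM in WT replicates 1, 2 and 3 and 49.4, 63.4 and 49.1 CPM in the KO replicates. Every KO library was above every WT library, with WT replicate 1 the highest of its group and KO replicate 2 standing above the other KO libraries. The means were 39.3 ± 4.54 and 54.0 ± 8.15 CPM (SD, n = 3), a log2 fold change of 0.46 ± 0.11 with an interval from 0.21 to 0.71 (edgeR's quasi-likelihood adjusted p = 0.0389). The spread within KO, a coefficient of variation of 15.1%, was wider than the 2.24% that counting alone gives for a mean of 1986 counts. Leaving out WT replicate 2 (adjusted p = 0.153) or 3 (0.0819), or KO replicate 1 (0.0844), 2 (0.148) or 3 (0.0728), ended the call. The value was 0.32 without KO replicate 2 and 0.56 without WT replicate 1, where it passed (adjusted p = 9.83e-04). In every one of these fits it remained above 0.

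**Figure D2:**
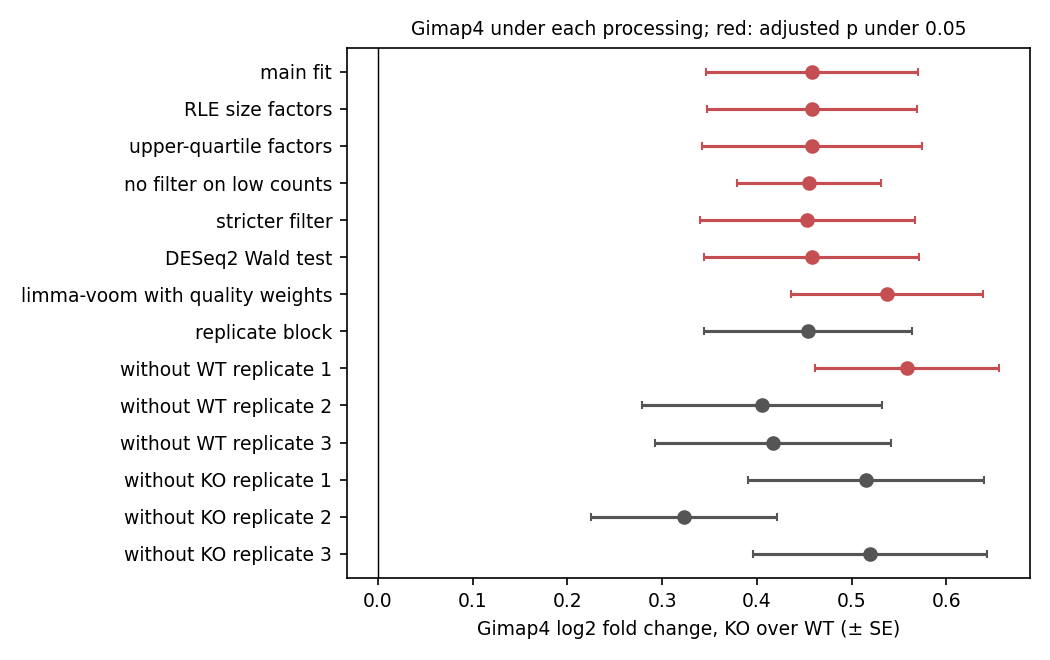
Log2 fold change of Gimap4, KO over WT (x axis, bars are SE), under each processing (y axis), in red where the adjusted p was under 0.05. All values lie between 0.32 and 0.56, and leaving out any library but WT replicate 1 puts the adjusted p above the threshold.

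Gimap7 and Gimap6, the next members along the chromosome, also had every KO library above every WT library but did not pass. Gimap7, whose protein hydrolyses GTP when it pairs with another GIMAP molecule, was scarce, with 35 to 62 counts in a WT library and 57 to 81 in a KO library. Its level was 1.51, 1.07 and 0.769 CPM in WT and 1.65, 2.12 and 1.55 CPM in KO (0.67 ± 0.30, edgeR adjusted p = 0.221). The interval ran from 0.02 to 1.33, which is a fold from 1.01 to 2.51. The coefficient of variation in WT was 33.5%, beside 14.7% from counting alone, and in KO 17.3%, beside 12.4%. Gimap7 passed without WT replicate 1 (0.96, adjusted p = 0.0354). Gimap6 encodes a partner of the autophagy protein GABARAPL2. It was at 84.6, 80.8 and 77.1 CPM in WT and 85.4, 89.5 and 85.3 CPM in KO (0.10 ± 0.06, adjusted p = 0.329), with WT replicate 1 close to the lowest KO libraries.

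Gimap4, Gimap6 and Gimap7 ranked the libraries alike. In each, WT replicate 1 was the highest WT library, and KO replicates 3, 1 and 2 followed in that order. Gimap6 and Gimap7 shared the whole order of 6 libraries, and Gimap4 differed from it only in the order of WT replicates 2 and 3. Across the family, WT replicate 1 was the highest WT library for 6 of 8 members and KO replicate 2 the highest KO library for 6 of 8. These members share their libraries, so this is a description of 6 samples.

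Gimap3, Gimap1 and Gimap8 had every KO library below every WT library, by small amounts that did not pass. Gimap3, which is found on intracellular membranes and affects the segregation of mitochondrial DNA in mice, was at 157.5, 148 and 147 CPM in WT and 136, 129.9 and 139 CPM in KO. Its log2 fold change was -0.16 ± 0.05 (edgeR adjusted p = 0.0958), and it passed without WT replicate 1 (-0.13, adjusted p = 0.0387) and with limma-voom quality weights (-0.14, adjusted p = 0.0272). Gimap8, the largest GIMAP protein with several GTP-binding domains, was at 57.5, 52.05 and 56.2 CPM in WT and 47.3, 51.1 and 47.0 CPM in KO (-0.19 ± 0.07, adjusted p = 0.121). KO replicate 2 came within 1 CPM of WT replicate 2. Gimap1, which mature T and B cells need to persist, was at 83.6, 82.9 and 84.2 CPM in WT and 80.4, 77.0 and 73.9 CPM in KO (-0.12 ± 0.05, adjusted p = 0.245). The WT libraries were nearly equal for Gimap1 (SD 0.647 CPM), and KO varied more (3.28 CPM).

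Gimap5 and Gimap9 overlapped between the groups. Gimap5 is the member whose loss causes T cell lymphopenia in mice and rats. It was at 43.4, 44.1 and 42.8 CPM in WT and 41.6, 45.0 and 38.0 CPM in KO, with KO replicate 2 the highest library of all (-0.06 ± 0.07, edgeR adjusted p = 0.683). Its interval, from -0.22 to 0.10, spans a fold from 0.857 to 1.07. Gimap9 was at 45.4, 42.1 and 41.6 CPM in WT and 39.0, 42.7 and 40.4 CPM in KO (-0.08 ± 0.07, adjusted p = 0.556). Gimap1os, a transcript named for the opposite strand of Gimap1, was at 0.879 to 1.41 CPM in WT and 1.01 to 1.42 CPM in KO (0.02 ± 0.29, adjusted p = 0.976). The printed counting commands set no strand, so reads of Gimap1 and its antisense transcript cannot be told apart where they overlap. Gimap3 and Gimap5 are close paralogs, and reads that map to more than 1 place were not counted by these commands, so their levels are uncertain to that extent.

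In 6 of 8 members (75%) the groups did not overlap, 3 with KO above and 3 with KO below, beside 26.8% of all genes tested (14.4% above and 12.4% below). At an unadjusted p under 0.05 there were 4 members (Gimap3, Gimap4, Gimap7 and Gimap8), and 3104 of the 14681 genes. The share without overlap was higher than the background, while the share past the test rests on 1 gene.

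The shares that members held in the family's counts were also read. Gimap4 held 8.59%, 7.46% and 7.61% of the family's counts in WT and 10.3%, 12.7% and 10.4% in KO. Gimap6 held 15.8% to 16.6% in WT and 17.8% to 18.0% in KO, and Gimap8 held 10.7% to 11.5% in WT and 9.84% to 10.2% in KO. For each of these the groups did not overlap, and the same held for the shares of Gimap3, Gimap7 and Gimap9. Shares of a whole are bound together, so a higher share of Gimap4 lowers those of other members. The count of Gimap4 per count of Gimap3 was 0.283, 0.246 and 0.252 in WT and 0.363, 0.488 and 0.354 in KO. Such shares depend on gene length between genes, so each is compared only with itself across libraries.

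**Figure D3:**
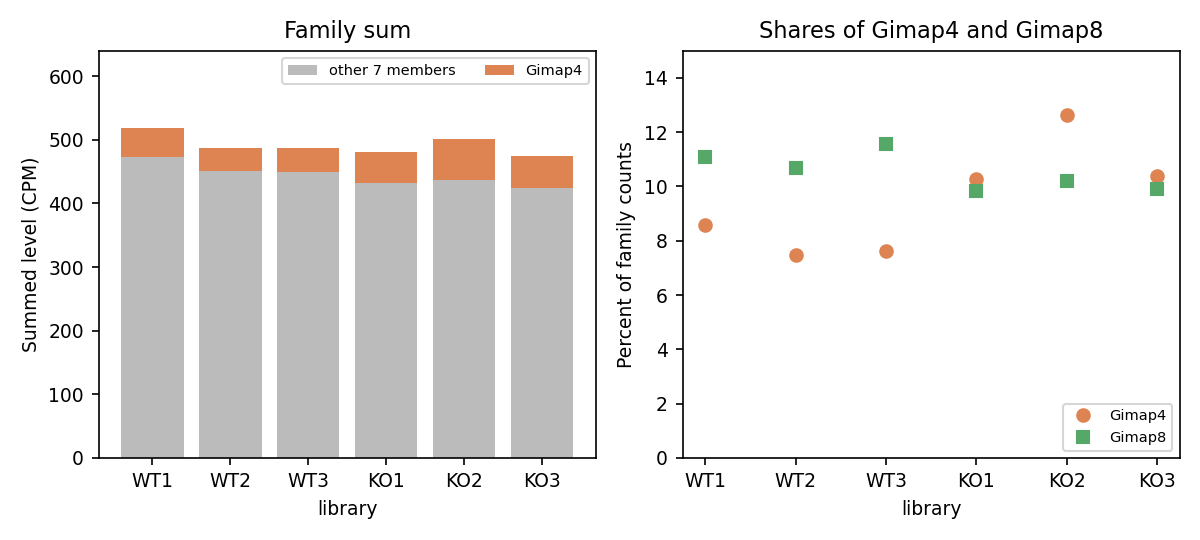
Left, summed level of the family in CPM in each library (bars from 0, Gimap4 in orange on top of the other 7 members in grey). Right, percent of the family's counts held by Gimap4 (circles, 7.46% to 8.59% in WT and 10.3% to 12.7% in KO) and by Gimap8 (squares).

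The 3 members with fitted values above 0, of which only Gimap4 passed, were neighbours in the cluster. Apart from them, the 2 genes next to its Gimap3 end were called higher in KO. A part of position in these values was not tested. Read along the chromosome, the log2 fold changes were -0.19 and -0.08 for Gimap8 and Gimap9, then 0.46, 0.10 and 0.67 for Gimap4, Gimap6 and Gimap7, then -0.12, -0.06 and -0.16 for Gimap1, Gimap5 and Gimap3. Beyond Gimap3 lie Tmem176b and Tmem176a, which encode a pair of related membrane proteins. Tmem176b was at 2.73, 1.98 and 2.00 CPM in WT and 3.82, 5.40 and 5.62 CPM in KO (1.15 ± 0.21, edgeR adjusted p = 0.00897). Tmem176a was at 0.536, 0.756 and 1.03 CPM in WT and 2.85, 2.07 and 2.12 CPM in KO (1.59 ± 0.29, adjusted p = 0.00908). These were the 2 of 12 tested genes called among the 10 protein-coding genes on each side of the cluster (16.7%, beside 6.39% of all genes). On the Gimap8 side no tested neighbour passed. Fitted values there ran from -0.74 ± 0.24 for Zfp467 to 0.84 ± 0.54 for Atp6v0e2, a gene of few counts, with Lrrc61 at -0.42 ± 0.15. Tmem176b no longer passed when KO replicate 3 (adjusted p = 0.0674) or replicate 2 of KO (0.0621) or of WT (0.0559) was left out. Tmem176a no longer passed when WT replicate 2 (0.0517) or KO replicate 1 (0.0735) was left out.

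**Figure D4:**
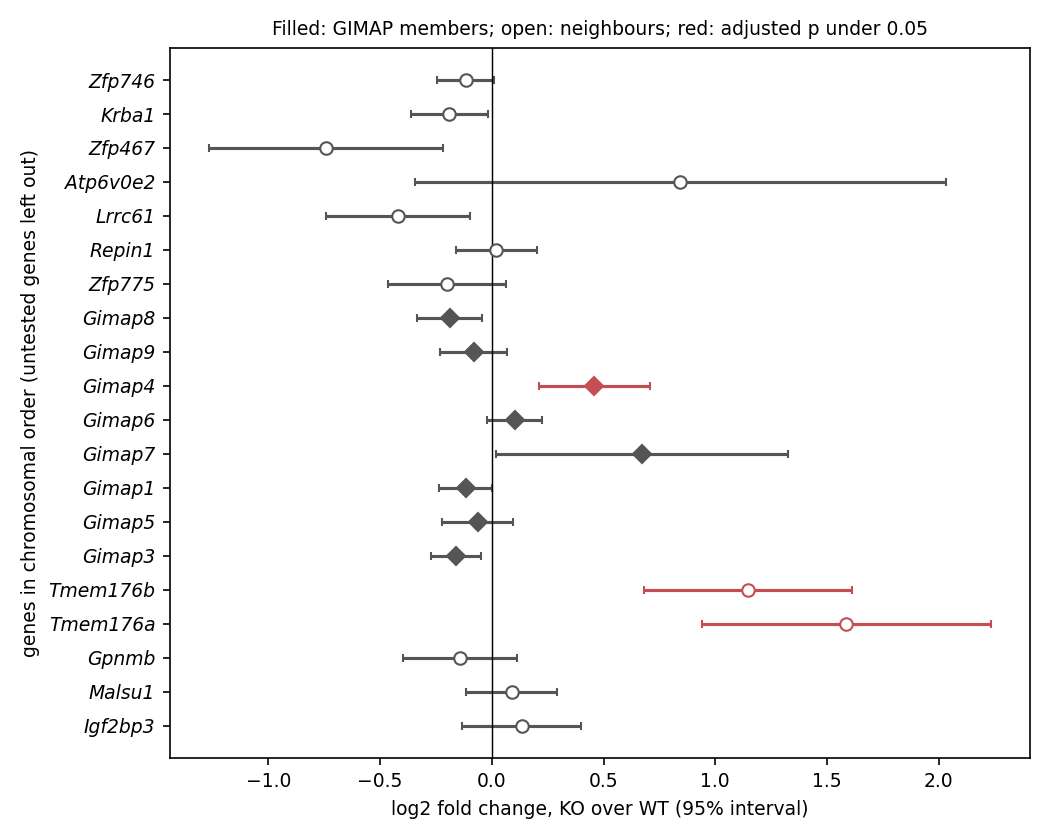
Log2 fold change, KO over WT, with its 95% interval (x axis) for the GIMAP genes (filled) and their tested protein-coding neighbours (open) in chromosomal order (y axis), in red where the adjusted p was under 0.05. Gimap4 (0.46), Tmem176b (1.15) and Tmem176a (1.59) are the genes past the threshold.

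The promoters of 4 members are shown because Gimap4, Gimap6 and Gimap7 ranked the libraries alike and Gimap3 lay on the other side of 0. RefSeq gave 9 promoter windows for the 8 members, Gimap8 having 2, each from 250 bases before to 50 after the start. The 250 bases before the start are printed 5′ to 3′ on the gene's own strand, with capitals for matches on either strand to the RUNX core TGTGGT and to the ETS core GGAAGT. A RUNX match on the opposite strand reads ACCACA.
Gimap4 (GRCm38.p6, chr6:48684328-48684577, plus strand): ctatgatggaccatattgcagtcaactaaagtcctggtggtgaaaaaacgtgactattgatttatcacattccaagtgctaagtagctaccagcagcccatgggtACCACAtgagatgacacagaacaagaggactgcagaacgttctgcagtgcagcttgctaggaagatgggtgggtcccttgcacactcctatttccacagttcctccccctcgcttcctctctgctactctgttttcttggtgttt
Gimap6 (GRCm38.p6, chr6:48708245-48708494, minus strand): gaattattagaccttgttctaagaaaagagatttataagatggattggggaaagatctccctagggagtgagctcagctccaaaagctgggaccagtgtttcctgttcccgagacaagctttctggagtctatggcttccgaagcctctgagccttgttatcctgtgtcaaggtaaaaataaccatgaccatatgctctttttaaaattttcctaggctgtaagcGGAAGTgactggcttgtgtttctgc
Gimap7 (GRCm38.p6, chr6:48718371-48718620, plus strand): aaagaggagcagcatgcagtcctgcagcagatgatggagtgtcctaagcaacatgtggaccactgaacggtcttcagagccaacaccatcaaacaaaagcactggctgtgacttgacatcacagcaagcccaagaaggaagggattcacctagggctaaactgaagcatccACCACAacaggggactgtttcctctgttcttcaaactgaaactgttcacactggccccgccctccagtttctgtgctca
Gimap3 (GRCm38.p6, chr6:48770852-48771101, minus strand): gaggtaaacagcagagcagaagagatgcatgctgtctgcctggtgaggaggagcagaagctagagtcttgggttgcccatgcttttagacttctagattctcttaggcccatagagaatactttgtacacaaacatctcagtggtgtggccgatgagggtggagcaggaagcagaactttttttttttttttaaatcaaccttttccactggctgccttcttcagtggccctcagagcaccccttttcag

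RUNX factors and ETS factors are lymphocyte regulators, and AGGTCA is a core sequence bound by many nuclear receptors. The RUNX core was found on either strand within the 300-base windows of Gimap1, Gimap4 and Gimap7, beside 16.8% of all 32851 windows. The ETS core was in those of Gimap1, Gimap5, Gimap6 and Gimap9, beside 23.8%. AGGTCA was in the window of 1 member, Gimap4, beside 16.3% of windows, starting at base 23 after the transcription start. It is shown in capitals with its flanks, on the plus strand of GRCm38.p6.
Gimap4 (chr6:48684588-48684617): cgaaatcagagaAGGTCAaaggacccagat
The STAT pattern TTCNNNGAA was in the windows of Gimap3, Gimap6, Gimap7 and Gimap8, beside 8.30% of windows, and the AP-1 pattern TGANTCA in none of the members' windows, beside 7.81%. The NFAT pattern GGAAAA was in the windows of Gimap1, Gimap3 and Gimap6 (23.4% of all windows), the KLF pattern CCACCC in those of Gimap3, Gimap4, Gimap5, Gimap8 and Gimap9 (31.5%), the T-box pattern TCACAC in those of Gimap7 and Gimap8 (14.5%) and the TATA box TATAAA in that of Gimap6 (13.6%). All were searched on either strand. No pattern of these 9 was shared by Gimap4, Gimap6 and Gimap7. A match describes the letters in the window and is not a bound site. The patterns were chosen after the sequences and the fold changes had been seen.

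Naive and quiescent T cells are rich in GIMAP transcripts, so genes of that state were read in the same fit. Of 28 tested quiescence and naive T cell genes, 3 fell and none rose (10.7% called, median -0.13), beside 6.39% of all genes called and 2.47% called lower. An unadjusted p under 0.05 was found for 8 of the 28, beside 3104 of all 14681 genes. The list's count of lower genes was 6 with no filter, 8 with limma-voom and 8 without WT replicate 1, where 1 gene was also higher. Calls over all genes in either direction were then 1568 of 26083, 2934 of 14681 and 2961 of 15039. The repressor gene Bach2 had the largest fall, at -0.70 ± 0.05 (edgeR adjusted p = 1.04e-05). Foxo1, whose factor sustains the naive T cell state, fell by 0.45 on the log2 scale (adjusted p = 0.00134) and the antiproliferative gene Btg1 by 0.22 (adjusted p = 0.0119). Btg1 no longer passed when KO replicate 3 (adjusted p = 0.0827) or replicate 2 of KO (0.0988) or of WT (0.0633) was left out. Gimap1 and Gimap5, which T cells need to live, had fitted values of -0.12 and -0.06 beside these.

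Genes of processes in which GIMAP proteins take part were read next. In the BCL2 family, which sets the threshold for apoptosis, 1 of 18 tested genes rose and 1 fell (11.1%, beside 6.39% of all genes). Bcl2l11, which encodes the death activator BIM, fell from 26.2 ± 2.77 to 17.0 ± 1.20 CPM (-0.63 ± 0.10, edgeR adjusted p = 0.00361). Bcl2a1d, a survival gene with near-identical copies that make its count uncertain, rose from 99.9 ± 0.752 to 129 ± 7.78 CPM (0.37 ± 0.05, adjusted p = 0.00263). Of 28 autophagy and ATG8 genes, 1 rose (3.57%), the cargo receptor gene Sqstm1 (0.47 ± 0.04, edgeR adjusted p = 1.03e-04), and none fell. Of 8 GSK3 and beta-catenin genes, 0 passed with edgeR or DESeq2 over all 6 libraries and 0 had an unadjusted p under 0.05 with edgeR. There were 2 called lower with limma-voom, and likewise 2 with edgeR without WT replicate 1. Over all genes, limma-voom called 2934 of 14681 and the fit without WT replicate 1 called 2961 of 15039, in either direction. The most abundant were Csnk1a1 at 0.02 ± 0.04 and Ctnnb1 at -0.09 ± 0.05. Ctnnb1 did pass without WT replicate 1 (-0.14, adjusted p = 0.0127) and with limma-voom quality weights (-0.13, adjusted p = 0.0196).

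Septins, filament-forming GTPases with a related fold, had 1 of 8 tested genes higher, Sept11 (0.23 ± 0.06, edgeR adjusted p = 0.0388). That is 12.5% called, beside 6.39% of all genes. Of 14 tested interferon-inducible GTPases, 1 was higher (7.14%), Gbp8 (0.65 ± 0.15, edgeR adjusted p = 0.0284), and none lower, with a list median of 0.22. Sept11 and Gbp8 each missed the threshold without WT replicate 2 and without any 1 KO library (adjusted p from 0.0742 to 0.219 for Sept11 and from 0.106 to 0.128 for Gbp8), and Gbp8 also without WT replicate 3 (0.0614). Of 16 activation genes, Egr1 rose (1.02 ± 0.06, edgeR adjusted p = 3.06e-06) and Irf4 (-0.31 ± 0.04) and Myc (-0.27 ± 0.07) fell (18.75% called). Myc missed the threshold with RLE size factors (adjusted p = 0.0510) and when any 1 library but WT replicate 1 was left out (0.08295 to 0.210). Without WT replicate 1 the calls were 3 higher and 4 lower of 18 genes in the BCL2 family, and 4 and 1 of 28 autophagy genes. They were 4 and 1 of 8 septins, and 5 higher of the 17 interferon-inducible GTPases tested in that fit. Over all genes, the same fit called 2961 of 15039 in either direction.

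**Figure D5:**
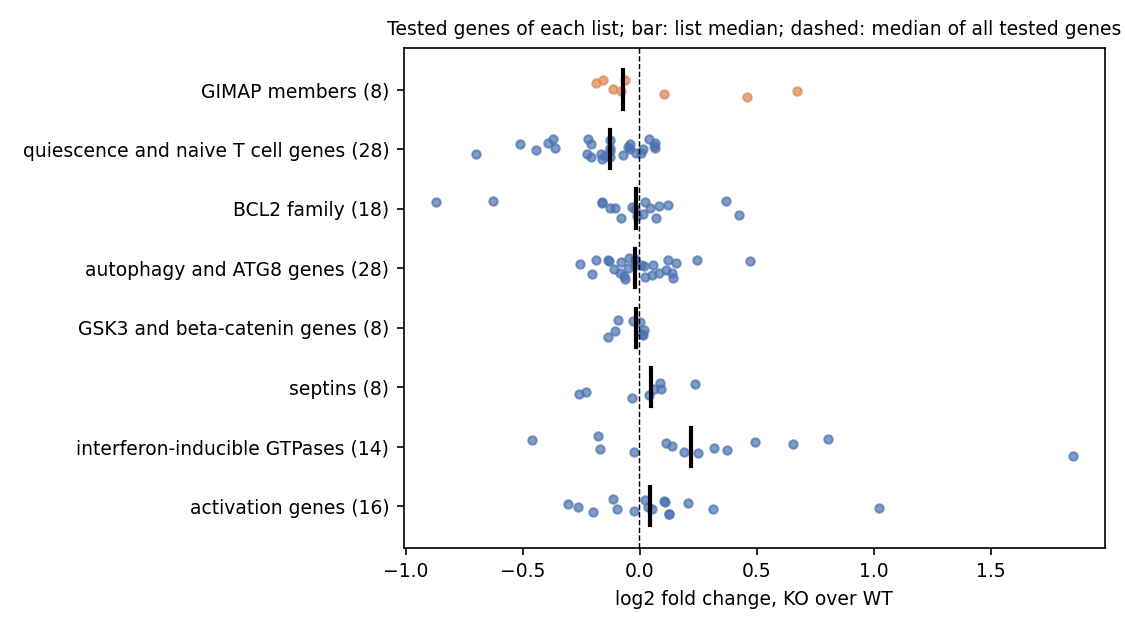
Log2 fold change, KO over WT (x axis), of each tested gene of the GIMAP family (orange) and of the other lists (blue, number of tested genes in brackets; vertical spread within a row is only to part the points), with the list median as a black bar and the median of all tested genes dashed. The family's median is -0.07, and that of the quiescence genes -0.13.

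GIMAP genes are also active in other lymphocytes, so markers of other cells were read beside Gimap4. In bulk RNA, more cells of a type and more RNA per cell cannot be told apart. Over all genes tested, 3.92% were called higher in KO and 2.47% lower. Summed gamma delta T cell markers ran from 50.7 to 62.6 CPM in WT and from 95.85 to 101 CPM in KO, with 4 of 5 genes called higher. B cell markers ran from 68.35 to 81.6 CPM and from 96.9 to 103 CPM (2 of 4 tested genes called higher and 1 lower), while Ms4a1 was at 0 to 0.114 CPM over the 6 libraries. NK cell markers ran from 8.52 to 13.0 CPM and from 16.0 to 20.4 CPM (2 of 3 tested genes called higher), with Ncr1 and Klrb1c at 0 in every library. Dendritic cell markers ran from 148 to 156 CPM and from 207.5 to 216 CPM (2 of 4 tested genes called higher), and myeloid markers from 2.44 to 2.84 CPM and from 6.27 to 7.89 CPM (1 of 4). CD8 markers overlapped, at 14.1 to 16.0 CPM in WT and 12.4 to 16.6 CPM in KO. The sum of CD4 T cell markers also overlapped, at 1237 to 1402 and 1219 to 1260 CPM, and 0 of its 7 genes were called. Within it, Cd4 was lower in every KO library (-0.36, edgeR adjusted p = 0.0504) and Cd3g higher in every KO library (0.30, adjusted p = 0.0780). Endothelial markers summed to 28.25 to 31.6 CPM in WT and 26.4 to 28.1 CPM in KO, nearly all of it Pecam1, the 1 of 6 genes tested, which was not called (-0.15, adjusted p = 0.306). Tek and Emcn were at 0 in every library. Erythroid markers were at 0.39 to 0.835 CPM in WT and 1.49 to 4.94 CPM in KO, with Hba-a2 at 0 in every library. Most of this sum was Hbb-bt, the 1 of 6 genes tested, which was called higher (2.62, edgeR adjusted p = 0.0138). It was at 1.99, 1.31 and 4.67 CPM in KO replicates 1, 2 and 3. Among these sums, those of B cells and myeloid cells shared with Gimap4 that KO replicate 2 was the highest library. The part of such cells in the Gimap4 result was not tested.

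The genes most like the family were found by the root mean square difference, over the 6 libraries, between a gene's centred log2 CPM and the mean centred profile of the 8 members. Among 9178 genes of at least 5 CPM, Metrn (0.021), Smarcb1 (0.023), Taf12 (0.024), Rbm38 (0.025), Naa60 (0.025) and Ap3m2 (0.025) were closest, beside a median of 0.131. The family profile itself spans 0.26 on the log2 scale, from WT replicate 3 (-0.12) to KO replicate 2 (0.13), with Gimap7 and Gimap4 the members that vary most in it. Members weigh alike in this mean, so Gimap7, with few counts, and Gimap4 shape it most. By contrast, 5 of the 8 members had fitted values below 0, so the profile is not that of a typical member. The log2 fold changes of the 6 genes, from 0.03 (Ap3m2) to 0.12 (Metrn), are drawn toward this mean by the choice. None of these 6 genes passed the test, and 5 of the 6 were also closest with a prior count of 0.5 in place of 2. The genes closest to Gimap4 alone, picked after its result was seen, were Ppp1r13l, Prss16, Fgl2, Psmb9, Arhgap26 and Enkd1, at 0.067 to 0.078. Their log2 fold changes, which that choice draws toward Gimap4's, ran from 0.37 (Prss16) to 0.56 (Arhgap26).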

How the data were processed

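RNA-seq counts of 6 Th17 libraries (3 WT, 3 KO) were analysed, and 7 chromatin samples of the 13 in the series were not. The authors deposited raw counts per gene, counted over exons by featureCounts 2.0.1 on GENCODE vM33 genes, per the file headers. The deposited column of WT replicate 2 is entered as other in the record of units kept here and holds raw counts like the rest. The genome build, like the aligner version, is not given in the sources used here. Of low counts (1 to 20), 65.6% to 67.7% were even, against 48.8% to 50.9% of high counts, so single counts may not be independent and counting error may be understated.

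Symbols matched 51948 of 56941 identifiers (91.2%). Counts were tested with edgeR 4.0.16 (R 4.3.3; default filter, TMM, robust quasi-likelihood fit, no covariates; biological coefficient of variation 9.28%). Each SE was derived from the log2 fold change and its F statistic. On simulated counts the test recovered 48 of 67 genes changed 1.5-fold. Alternatives were RLE and upper-quartile factors, 2 filters, DESeq2 1.42.0, limma 3.58.1, the replicate number as a block and leaving out each library. Some marker genes are not reported here. Members, lists and tests were chosen with earlier results of these data known. Named were all members, Chaf1b, up to 4 called genes per list with the largest change (the 2 most abundant where none passed) and the 6 genes most like the family.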

Additional observations from a re-analysis of the deposited data

How the results depend on the processing

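The direction of each of the 8 members was the same in all 13 alternatives, and Gimap1, Gimap5, Gimap6, Gimap8 and Gimap9 passed in none of them. The number of members called (1) was 2 with limma-voom quality weights, 0 with the replicate block and 0 to 3 when a library was left out, 3 being without WT replicate 1. Log2 fold changes without a library ran from 0.32 to 0.56 for Gimap4, from 0.46 to 0.96 for Gimap7 and from -0.18 to -0.13 for Gimap3, and Gimap3 was -0.14 with limma-voom. Over all genes, 938 calls became 1568 with no filter, 2934 with limma-voom and 295 to 2961 without a library. The lists' 11 calls became 18 with no filter, 35 with limma-voom and 7 to 40 without a library, and the neighbours' 2 became 5 with limma-voom and 0 to 2 without a library. Chaf1b was 0.36 with limma-voom and ran from 0.23 to 0.38 without a library, and was called higher in KO with limma-voom (adjusted p = 0.0147) and without WT replicate 1 (0.0138). Csnk1a1 turned to -0.0017 with limma-voom and to -0.018 without WT replicate 1, and ran up to 0.041 without WT replicate 3. The causes were not tested.

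Deviations from the genotype means showed little correlation over genes between same-numbered WT and KO libraries (-0.040, -0.028 and 8.74e-04). Between differently numbered libraries the correlations ran from -0.045 to 0.065. These values cannot settle whether the numbers pair the samples, since a shared origin need not leave a trace over all genes. With the replicate number as a block Gimap4 was at 0.45 (edgeR adjusted p = 0.0514), and Sept11 (0.0712) and Gbp8 (0.0502) missed the threshold too. Gimap7 and Gimap1os had 35 to 81 counts a library, so counting error is wide for both, and in WT the spread of Gimap7 between libraries was wider still.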
